A study of Homo sapiens with 12 samples.

Results

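The mitosis and spindle genes are 52 genes, chosen by name, whose products carry a cell from the entry into mitosis to the separation of its daughters. They were matched to Entrez identifiers, and all 52 were found among the 26258 identifiers of the deposited table. All 52 were among the 13515 genes tested, those that reached 1 CPM in 2 or more of the 12 libraries, where CPM is a gene's read count scaled to a library total of 1000000. The names were grouped by role into 9 sets, and members were read in each of the 12 libraries without regard to their level.

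HLE is a human hepatocellular carcinoma cell line. The cells were transfected with siRNAs that deplete YAP together with TAZ (siY/T), with siRNA for ATF4 (siATF4) or with a control siRNA (siCtrl). The last serves as the control of both depletions. Each of the 3 kinds of cells was given the solvent DMSO or Sorafenib (Srf) at 5 µM, a multikinase inhibitor used against liver cancer, which makes 6 groups of 2 libraries. YAP and TAZ (genes *YAP1* and *WWTR1*) are transcriptional co-activators of the Hippo pathway, and ATF4 is a transcription factor of the integrated stress response. An siRNA leaves part of the transcript in place, a line is a single genetic background, and nothing in the labels says that the libraries of a group came from separate cultures. The study's methods speak of biological triplicates, while 2 libraries per group were analysed here, so the p-values measure the spread between libraries, which may be technical. The dose is that of the labels, which give no time of treatment, and the study's text gives a different dose.

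Reads assigned to genes numbered from 41408348 to 53619732 per library. *YAP1* was at 277 and 279.9 CPM in siCtrl DMSO cells and at 46.6 and 57.7 CPM in siY/T DMSO cells. *ATF4* was at 248 and 249 CPM in siCtrl DMSO cells, at 96.2 and 101 CPM in siATF4 DMSO cells, at 484 and 492 CPM in siCtrl Srf cells and at 84.5 and 90.6 CPM in siATF4 Srf cells. *WWTR1* was at 170 and 173 CPM in siCtrl DMSO cells and at 53.3 and 68.6 CPM in siY/T DMSO cells. No targeted gene went against its label in any library. Each depletion also went with less mRNA of a target of the other. *WWTR1* was at 107 and 104 CPM in siATF4 DMSO cells, though at 145 and 136 CPM in siATF4 Srf against 154 and 145 CPM in siCtrl Srf cells. *ATF4* was at 207 and 197 CPM in siY/T DMSO cells and at 317 and 314 CPM in siY/T Srf cells. Of 8 hepatocyte genes only *SERPINA1* reached 1 CPM in any library and *APOB* was listed at 0 throughout. In siCtrl DMSO cells the mesenchymal gene *VIM* was at 2375 and 2280.4 CPM. There *FN1* was at 53.4 and 53.0 CPM, *ZEB1* at 15.0 and 16.1 CPM and *CDH2* at 5.22 and 5.30 CPM. Of the epithelial genes, *KRT8* was at 2284 and 2205 CPM and *KRT18* at 1047 and 1017 CPM, while *CDH1* and *EPCAM* were under 1 CPM in these libraries. The other 7 hepatocyte genes stayed under 1 CPM in all libraries, so that most defining markers of hepatocytes were at or near 0 in this liver line.

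Mitosis is driven by cyclin-dependent kinase bound to its cyclins, and is followed by an ordered sequence in which chromosomes condense, attach through kinetochores to the spindle, wait for the checkpoint, and are pulled apart once the anaphase promoting complex has marked cyclin B and securin for destruction. Most of the genes involved are transcribed in G2 and M phase and shut down in G1, through promoters that often carry a cell cycle genes homology region (CHR) and CCAAT boxes, bound by the DREAM and MuvB complexes with MYBL2 and FOXM1. Their mRNA in a population therefore depends on the share of cycling cells as well as on the amount per cell.

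The members were abundant. Their CPM added up to 11732 and 11993 in the siCtrl DMSO libraries, and the range over members in these libraries went from 10.7 CPM for *SPC24* to 1079.7 CPM for *MKI67*. In DMSO the siY/T libraries had sums of 9948 and 11140 CPM and the siATF4 libraries sums of 7867 and 7955 CPM. With Srf the sums were 7933 and 7922 CPM in siCtrl, 6635 and 6607 CPM in siY/T and 8263 and 8105 CPM in siATF4 cells. In bulk RNA, fewer cells in G2 and M phase and less of each mRNA per cell cannot be told apart. The sum was thus highest in siCtrl DMSO cells, lower after either Srf or the loss of ATF4, and lowest where Srf was combined with the loss of YAP and TAZ. By group mean, siCtrl DMSO was the highest group for 41 of the 52 members and siY/T Srf the lowest for 40.

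**Figure D1:**
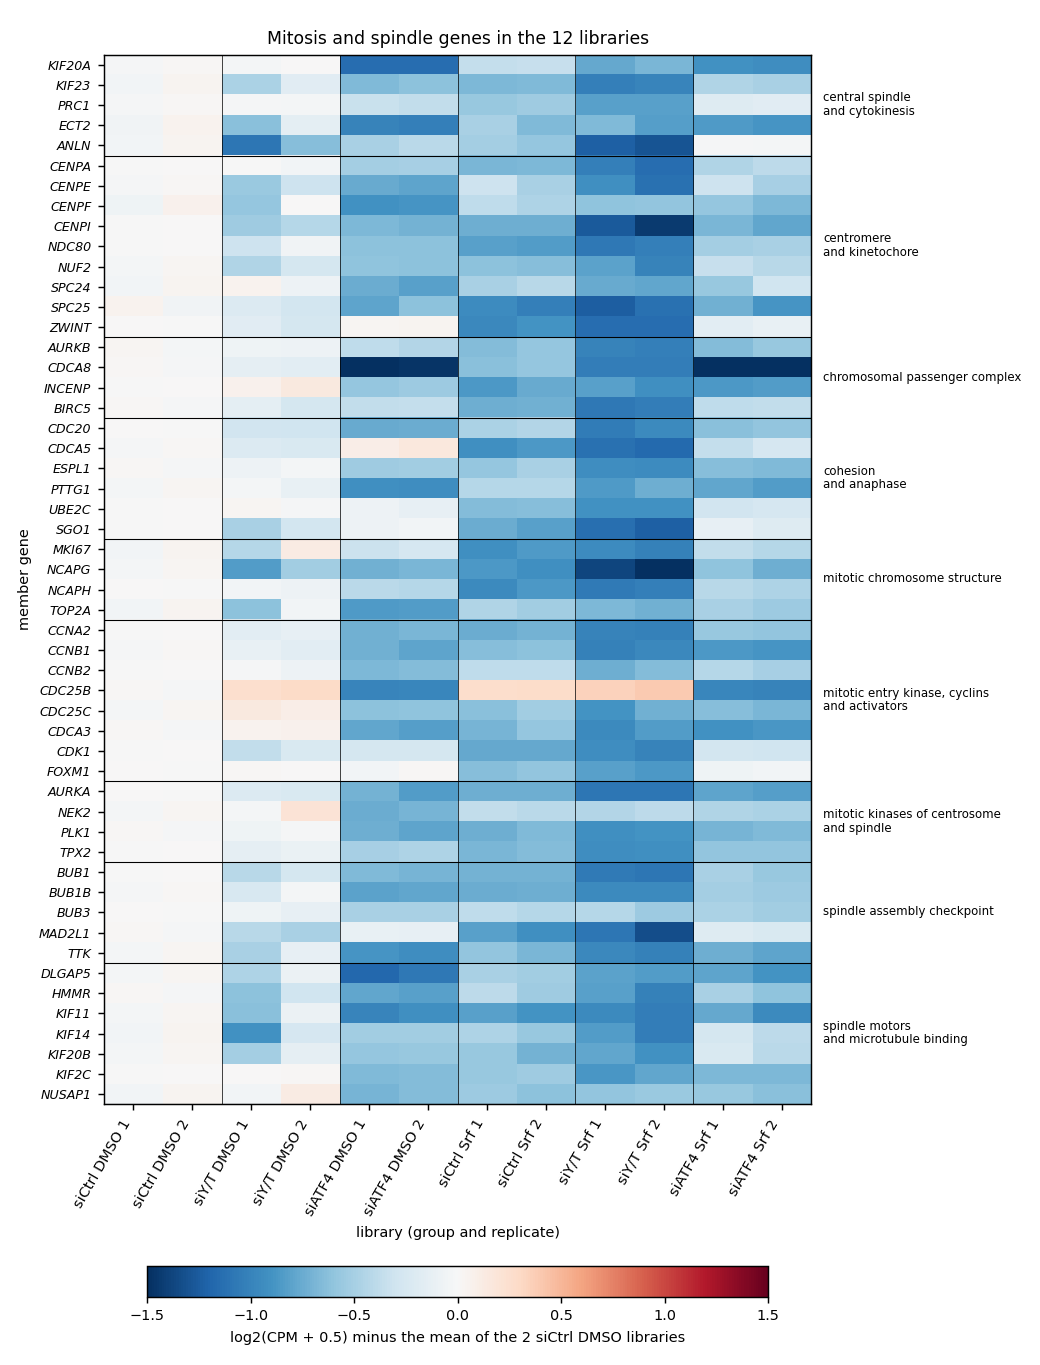
Heat map of the 52 members (rows, ordered by role) in the 12 libraries (columns), as log2(CPM + 0.5) minus the mean of the 2 siCtrl DMSO libraries, with blue for lower and red for higher. Nearly all rows are blue in the Srf libraries of siCtrl and siY/T cells and in both siATF4 groups, *CDC25B* is red in the Srf libraries of siCtrl and siY/T cells, and *ZWINT*, *CDCA5* and *FOXM1* are pale in siATF4 DMSO cells.

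The promoters of the members were examined for the elements that mark genes of G2 and M phase. RefSeq promoters on GRCh38.p14, of 300 bases from 250 before to 50 after a transcription start, were at hand for 45 members, which had 56 of them. The other 7 members are *AURKA*, *BIRC5*, *BUB3*, *FOXM1*, *TPX2*, *TTK* and *UBE2C*. A CHR, searched as TTTGAA or TTCGAA on both strands, was in 67.9% of the members' promoters and in 16.4% of all 35116 promoters. A CCAAT box, searched on both strands, was in 75% of the members' promoters and in 34.6% of all, and both elements were in 55.4% and 6.38%. Among 39 promoters of 31 DNA replication genes, which peak earlier in the cell cycle, a CHR was in 5.13% and CCAAT in 59%. The members' promoters were therefore set apart from those of replication genes by the CHR more than by CCAAT. The 52 CHR matches of the members began at a median position of -24.5 from the start site, and 27 of them within the 60 bases before it. A match is a description and not a bound site.

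The following 5 promoters, each on the forward strand of GRCh38.p14 and read from RefSeq, show these elements in capitals, CHR as TTTGAA or TTCGAA (or the reverse TTCAAA) and CCAAT (or the reverse ATTGG). *CENPA*, *INCENP* and *NCAPH* are shown because they had the largest falls with Srf in siY/T cells. *PLK1* and *CDC25B* were chosen after their values were seen, the former as a typical member and the latter as the member that lay above 0 with Srf. They lie at chr2:26785806-26786105, chr11:62123761-62124060, chr2:96335516-96335815, chr16:23678639-23678938 and chr20:3796060-3796359, in the order given, and the last is the only one of the 4 *CDC25B* promoters that has a CHR.
CENPA: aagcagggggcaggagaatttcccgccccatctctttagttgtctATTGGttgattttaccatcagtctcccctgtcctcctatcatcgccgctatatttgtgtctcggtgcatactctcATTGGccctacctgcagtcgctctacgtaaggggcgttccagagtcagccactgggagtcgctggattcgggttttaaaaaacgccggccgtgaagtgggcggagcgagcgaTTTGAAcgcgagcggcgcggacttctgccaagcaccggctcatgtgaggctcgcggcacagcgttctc
INCENP: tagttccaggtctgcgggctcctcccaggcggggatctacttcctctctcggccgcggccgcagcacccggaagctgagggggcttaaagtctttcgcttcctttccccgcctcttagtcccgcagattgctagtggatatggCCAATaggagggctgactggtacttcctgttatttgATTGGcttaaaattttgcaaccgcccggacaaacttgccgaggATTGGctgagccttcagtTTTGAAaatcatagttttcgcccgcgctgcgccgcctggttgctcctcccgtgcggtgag
NCAPH: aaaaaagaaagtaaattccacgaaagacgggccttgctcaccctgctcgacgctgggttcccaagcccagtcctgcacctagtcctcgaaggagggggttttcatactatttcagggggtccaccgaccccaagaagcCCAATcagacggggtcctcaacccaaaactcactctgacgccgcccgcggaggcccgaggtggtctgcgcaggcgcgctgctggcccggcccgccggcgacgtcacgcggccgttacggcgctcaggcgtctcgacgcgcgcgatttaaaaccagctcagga
PLK1: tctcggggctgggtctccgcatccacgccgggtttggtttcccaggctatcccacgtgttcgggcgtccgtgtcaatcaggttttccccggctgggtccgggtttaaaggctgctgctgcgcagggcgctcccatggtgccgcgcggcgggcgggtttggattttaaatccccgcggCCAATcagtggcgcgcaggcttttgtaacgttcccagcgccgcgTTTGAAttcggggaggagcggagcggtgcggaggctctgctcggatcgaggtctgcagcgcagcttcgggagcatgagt
CDC25B: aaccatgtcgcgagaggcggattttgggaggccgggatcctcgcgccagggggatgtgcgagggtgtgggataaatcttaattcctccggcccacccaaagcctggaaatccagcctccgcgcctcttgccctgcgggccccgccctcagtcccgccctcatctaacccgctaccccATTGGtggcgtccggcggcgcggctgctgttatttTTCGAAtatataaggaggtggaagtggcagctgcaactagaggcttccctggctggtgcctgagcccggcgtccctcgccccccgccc
Counted from the start site, with negative positions before it, the CHR of *CENPA* began at -18 and that of *PLK1* at -29, the latter with a CCAAT box at -73. *INCENP* had 3 CCAAT boxes, at -107, -71 and -28, ahead of a CHR at -10. *NCAPH* had 1 CCAAT box at -112 and no CHR letters in this window. The *CDC25B* promoter had its CHR at -38 and a CCAAT box at -73, the same position as in *PLK1*.

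Srf lowered mitosis genes across every role in siCtrl cells. Of the 52 members, 31 (59.6%) fell and 0 rose at the study's thresholds, an unadjusted P under 0.05 and a log2 fold change of at least 0.58, where 5.15% of all genes tested were lowered and 12.3% were raised. The median log2 fold change of the members was -0.63, against 0.05 over all genes tested. Both Srf libraries lay below both DMSO libraries for 51 members, where 36.8% of all genes did so, and the exception was *CDC25B*. At an unadjusted P under 0.05 alone, 51 members were lower and 1 was higher, and edgeR and DESeq2 on the recovered reads raised 0 as well and lowered 36 and 37. At an adjusted P under 0.05 and any fold change, 51 members were lower and 1 higher, against 26.9% and 36.3% of all genes tested.

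Of the 8 genes of mitotic entry, 5 fell. *CCNB1* (Entrez 891, chromosome 5 from 68462962 to 68474072 on GRCh37, the build of all gene positions here), which encodes cyclin B1, was at 605 and 623 CPM in siCtrl DMSO cells and at 395 and 399.7 CPM with Srf, a change of -0.63 on the log2 scale (standard error, SE, 0.040, adjusted p = 4.76e-08, limma). *CDK1* (Entrez 983, chromosome 10 from 62538089 to 62554610), the kinase that cyclin B1 activates, was at 161 and 162 CPM against 94.9 and 94.3 CPM, a change of -0.77 on the log2 scale (SE 0.048, adjusted p = 4.01e-08, limma). The libraries of the groups did not overlap for either. Cyclin A2 (*CCNA2*) was at 126 and 128 CPM against 75.3 and 77.4 CPM, and *FOXM1*, the transcription factor of the G2 and M programme, at 337 and 335 CPM against 217 and 224 CPM, with log2 fold changes of -0.73 and -0.61. With quantile normalization the fold changes of *CCNB1* and *FOXM1*, -0.56 and -0.53, came to lie below the fold threshold. *CDC25B* (Entrez 994, chromosome 20 from 3767419 to 3786768), a phosphatase that activates CDK1, was at 436 and 425 CPM in DMSO and at 517 and 519.9 CPM with Srf. It was the only member above 0, at 0.27 (SE 0.037, adjusted p = 3.50e-05, limma), and did not reach the fold threshold, whereas its paralogue *CDC25C* was at 37.9 and 39.5 CPM against 25.0 and 26.7 CPM, just short of the threshold.

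The mitotic kinases and the checkpoint fell alike. *PLK1* (Entrez 5347, chromosome 16 from 23688977 to 23701688), a kinase of centrosomes and kinetochores, was at 208 and 203 CPM in DMSO and at 124 and 129.9 CPM with Srf, a change of -0.69 on the log2 scale (SE 0.043, adjusted p = 3.80e-08, limma). *AURKA* (Entrez 6790, chromosome 20 from 54944445 to 54967393), the Aurora kinase of the spindle poles, was at 248 and 248 CPM against 149 and 149 CPM, at -0.73 (SE 0.045, adjusted p = 3.31e-08, limma). With them fell *TPX2*, which recruits AURKA to the spindle, at -0.67, while *NEK2*, a kinase that parts the centrosomes, was at -0.39 and was not called. Of the 5 checkpoint genes 4 fell. *BUB1* (Entrez 699, chromosome 2 from 111395105 to 111435640), the checkpoint kinase at the kinetochore, was at 173 and 175 CPM against 106 and 106 CPM, at -0.71 (SE 0.051, adjusted p = 1.22e-07, limma). The fold changes of *BUB1B*, *MAD2L1* and *TTK* were -0.74, -0.87 and -0.64. *BUB3*, which also serves outside mitosis, was at 220.5 and 217 CPM against 168 and 163 CPM, at -0.41, and was the only member called in none of the 7 comparisons.

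At the centromere, 6 of 9 genes fell, among them the largest fall of all members. *SPC25* (Entrez 57405, chromosome 2 from 169690642 to 169769881), a subunit of the NDC80 complex that grips microtubules, was at 24.7 and 22.8 CPM in DMSO and at 12.1 and 11.4 CPM with Srf, a change of -0.99 on the log2 scale (SE 0.084, adjusted p = 5.06e-07, limma). *ZWINT* (Entrez 11130, chromosome 10 from 58116988 to 58121034), a kinetochore protein of the KNL1 module, was at 182 and 179 CPM against 92.0 and 96.5 CPM, at -0.94 (SE 0.045, adjusted p = 6.13e-09, limma). The other NDC80 subunits *NDC80*, *NUF2* and *SPC24* were at -0.83, -0.63 and -0.45, and the last was not called. *CENPA* (Entrez 1058, chromosome 2 from 26987157 to 27023935), the histone H3 variant that marks centromeres, was at 39.8 and 40.2 CPM against 24.6 and 25.0 CPM, at -0.68 (SE 0.055, adjusted p = 3.40e-07, limma). All 4 genes of the chromosomal passenger complex fell, with *AURKB*, its kinase, at 73.7 and 71.1 CPM against 46.1 and 48.1 CPM, and *BIRC5*, which encodes survivin, at 611 and 601 CPM against 365 and 367 CPM. Their log2 fold changes were -0.61 and -0.73, beside -0.81 for the scaffold *INCENP* and -0.60 for *CDCA8*, which encodes borealin.

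Among genes of chromosome structure, *NCAPH* (Entrez 23397, chromosome 2 from 97001504 to 97042829), the kleisin of condensin I, was at 102 and 101 CPM in DMSO and at 52.1 and 55.4 CPM with Srf, a change of -0.91 on the log2 scale (SE 0.046, adjusted p = 8.70e-09, limma). *MKI67*, which encodes the proliferation marker Ki-67 at the chromosome surface, was at 1015 and 1079.7 CPM against 553 and 583 CPM, at -0.88 (SE 0.12, adjusted p = 2.58e-05, limma). *TOP2A*, the topoisomerase that untangles sister chromatids, was at 826 and 868 CPM against 621 and 588 CPM, at -0.49, and was not called. In cohesion and anaphase 3 of 6 fell, *CDCA5* (sororin) at -0.89, *SGO1* (shugoshin) at -0.78 and *UBE2C*, the ubiquitin-conjugating enzyme of the anaphase promoting complex, at -0.65. Its activator *CDC20* was at 312 and 311 CPM against 223 and 229 CPM, at -0.46, and the separase gene *ESPL1* and securin gene *PTTG1* at -0.53 and -0.43. In limma the fewest calls were in the spindle motors, 2 of 7, and in cytokinesis, 1 of 5. This order of the roles depended on the method. edgeR called 4 and 3 in these roles and DESeq2 4 and 4, while both called 3 in cohesion and anaphase. *KIF11*, the motor that pushes the spindle poles apart, was at 236 and 247 CPM against 138 and 129.6 CPM, at -0.85 (SE 0.12, adjusted p = 4.89e-05, limma), and *KIF20A*, a motor of the central spindle, at 555 and 565 CPM against 436 and 442 CPM, at -0.35. The called members nearest the fold threshold were *CDCA8*, *FOXM1* and *AURKB*, at -0.60, -0.61 and -0.61. Just short of it were *NUSAP1*, a microtubule binding protein, at -0.5799, *CDC25C* at -0.5755 and *ECT2*, which activates RhoA at the cell equator, at -0.5712.

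**Figure D2:**
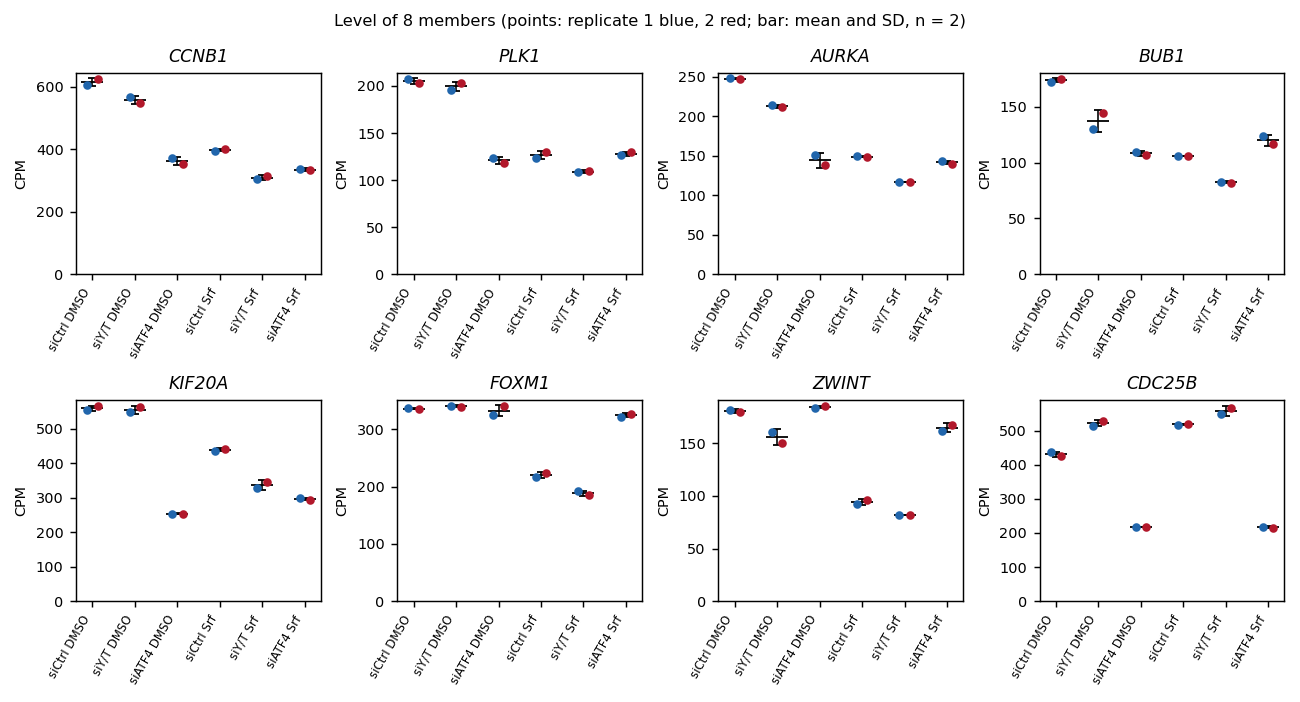
CPM of 8 members in the 6 groups, on linear axes from 0, with replicate 1 in blue, replicate 2 in red and the mean ± SD (n = 2 libraries) in black. *CCNB1*, *PLK1*, *AURKA* and *BUB1* were low in siATF4 cells with and without Srf and also in siCtrl Srf cells, and were lowest in siY/T Srf cells. *FOXM1* and *ZWINT* were low only in the Srf libraries of siCtrl and siY/T cells, and *CDC25B* was low in both siATF4 groups.

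In cells depleted of YAP and TAZ, Srf lowered 40 of the 52 members (76.9%) and raised 0, where 4.14% of all genes tested were lowered and 5.83% were raised. Their median log2 fold change was -0.77. At an unadjusted P under 0.05 alone, 51 were lower and 1 was higher, and edgeR and DESeq2 each lowered 41 and raised 0. By adjusted P under 0.05 and any fold change, 49 members were lower and 1 higher, against 23.5% and 29.5% of all genes tested. This comparison shares no library with that in siCtrl cells, and 29 members were called in both. That is 93.5% of the 31 lowered in the control background, where 76.9% of all members were lowered in siY/T cells. It is 72.5% of the 40 lowered here, where 59.6% of all members were lowered in siCtrl cells. *KIF20B* and *NUF2* were called in siCtrl cells alone, and *CCNB2*, *CDC20*, *CDC25C*, *CENPE*, *ESPL1*, *KIF20A*, *KIF2C*, *NUSAP1*, *PRC1*, *PTTG1* and *SPC24* in siY/T cells alone. A call in 1 background alone is not a difference in effect, which was tested separately. *NUSAP1* and *CDC25C*, for instance, lay just short of the fold threshold in siCtrl cells.

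*CENPA* was at 39.9 and 38.8 CPM in siY/T DMSO cells and at 19.4 and 17.9 CPM in siY/T Srf cells, with a change of -1.06 on the log2 scale (SE 0.055, adjusted p = 1.79e-08, limma). *NCAPH* was at 98.4 and 96.0 CPM against 48.2 and 49.6 CPM, at -0.98 (SE 0.046, adjusted p = 8.57e-09, limma). *INCENP* (Entrez 3619, chromosome 11 from 61891470 to 61920641), which anchors AURKB at centromeres, was at 141 and 149.9 CPM against 76.5 and 70.9 CPM, at -0.98 (SE 0.051, adjusted p = 1.97e-08, limma). These were the largest falls, and the Srf libraries lay below the DMSO libraries for each. *CCNB1* was at 567 and 549.5 CPM against 304 and 315 CPM (-0.85 on the log2 scale), *PLK1* at 196 and 203 CPM against 108 and 110.1 CPM (-0.87) and *AURKB* at 69.4 and 68.3 CPM against 35.9 and 35.4 CPM (-0.94). All 6 genes of cohesion and anaphase fell, with *CDC20* at 254 and 253 CPM against 149.7 and 161 CPM, a change of -0.71 on the log2 scale (SE 0.041, adjusted p = 3.93e-08, limma), and *UBE2C* at 154 and 149 CPM against 80.2 and 79.8 CPM, at -0.91 (SE 0.039, adjusted p = 7.50e-09, limma). *FOXM1* was at 342 and 339 CPM against 192 and 185 CPM, at -0.85. The fold changes of *MKI67* and *KIF11*, -0.83 and -0.65, came to -0.56 and -0.37 without the library siY/T DMSO replicate 2, and both calls were lost. *CDC25B* was at 515 and 528 CPM against 548 and 567 CPM, at 0.10, again not called.

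In cells depleted of ATF4, Srf lowered 0 and raised 0 of the 52 members, where 2.95% of all genes tested were lowered and 5.68% were raised. At an unadjusted P under 0.05 alone 9 members were lower and 18 were higher in limma, and edgeR and DESeq2 on the recovered reads lowered 0 and raised 0 at the fold threshold. At an adjusted P under 0.05 and any fold change, 9 members were lower and 16 higher, against 22.4% and 27.9% of all genes tested. The median log2 fold change was 0.08, with a range from -0.43 for *CDCA5* to 0.42 for *ANLN*, the gene of anillin, a scaffold of the cleavage furrow. *CCNB1* was at 372 and 354 CPM in siATF4 DMSO cells and at 338 and 332 CPM with Srf, *CDK1* at 135 and 134 CPM against 133 and 131 CPM, and *PLK1* at 124 and 118 CPM against 126 and 129 CPM. The log2 fold changes of these were -0.11, -0.03 and 0.08. *ANLN* was at 423 and 449 CPM against 586 and 579.9 CPM, and *CDCA5*, which protects cohesin, at 213 and 222 CPM against 155 and 168 CPM. *ZWINT* was at 184 and 185 CPM against 162 and 168 CPM, at -0.16, in contrast to its fall in the other backgrounds.

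**Figure D3:**
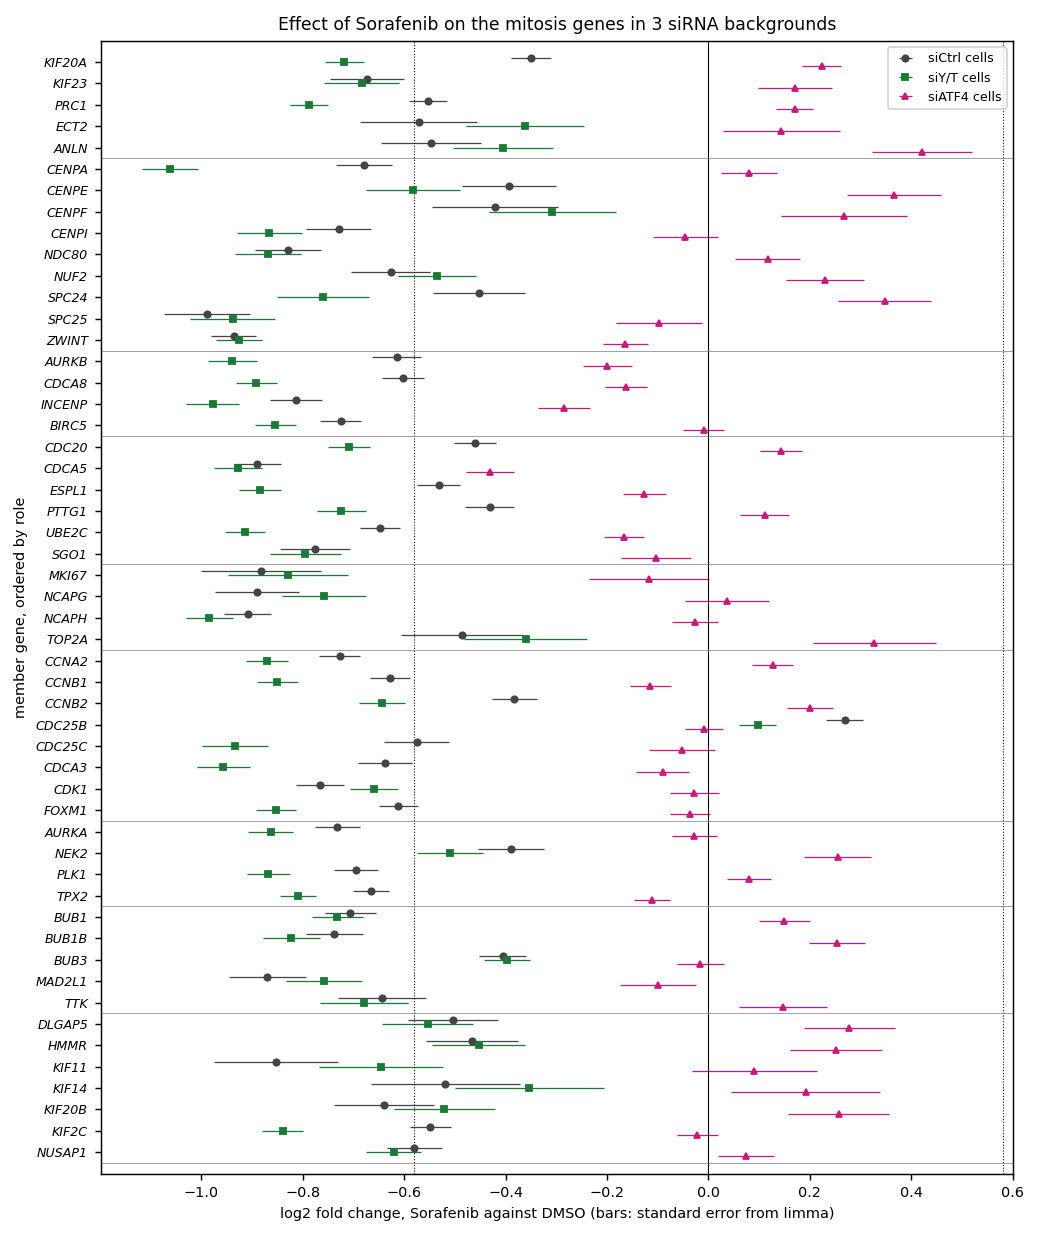
Log2 fold change of the 52 members between Srf and DMSO, with the standard error from limma, in siCtrl cells (grey circles), siY/T cells (green squares) and siATF4 cells (pink triangles), with dotted lines at the fold threshold of 0.58. The pink triangles lie between -0.43 and 0.42, and all members but *CDC25B* lie below 0 in siCtrl and siY/T cells.

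The difference in the Srf effect between backgrounds was tested as an interaction, called at an adjusted P under 0.05 without a fold threshold. It is the same quantity as the effect of a depletion in Srf minus its effect in DMSO. For siATF4 against siCtrl it was above 0 for 51 members (98.1%) and below 0 for 1, *CDC25B*, where 19.3% and 21.8% of all genes tested were called in these directions, and the median over the members was 0.72 on the log2 scale. The largest were *BUB1B*, which encodes the checkpoint protein BubR1, at 0.99 (SE 0.079, adjusted p = 2.08e-06, limma), *ANLN* at 0.97 (SE 0.14, adjusted p = 1.59e-04, limma) and *NDC80* at 0.95 (SE 0.091, adjusted p = 7.99e-06, limma). *BUB1B* was at 164 and 168 CPM and 99.0 and 99.8 CPM in siCtrl cells without and with Srf, and at 95.4 and 96.9 CPM and 116 and 113 CPM in siATF4 cells. *NDC80* was at 131 and 132 CPM and 74.1 and 73.2 CPM in siCtrl cells, and at 85.2 and 85.8 CPM and 92.3 and 93.2 CPM in siATF4 cells. Both thus fell with Srf in siCtrl cells and were not called with Srf in siATF4 cells. *CDC25B* was the exception, with an interaction of -0.28 (SE 0.052, adjusted p = 0.00113, limma).

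For siY/T against siCtrl the interaction was called below 0 for 16 members (30.8%) and above 0 for 0, where 14.2% and 7.81% of all genes tested were called. The members not called lay on both sides of 0. edgeR and DESeq2 also called 0 above 0, and 0 members were above 0 at an unadjusted P under 0.05 in limma. The members' median was -0.10, so the larger fall with Srf in siY/T cells was small beside the fall itself. *CENPA* had the largest difference, -0.38 (SE 0.078, adjusted p = 0.00503, limma), followed by *KIF20A* at -0.37 (SE 0.055, adjusted p = 8.08e-04, limma) and *CDC25C* at -0.36 (SE 0.091, adjusted p = 0.0151, limma). *KIF20A* was at 547 and 562 CPM in siY/T DMSO cells and at 328 and 347 CPM in siY/T Srf cells. *AURKB*, *CCNB1*, *CDC20*, *FOXM1* and *UBE2C* were among the 16, at -0.32, -0.22, -0.25, -0.24 and -0.27. Leaving out siY/T DMSO replicate 1 brought the number called to 25, all below 0. Without replicate 2 of that group the number was 27, of which 17 were below 0 and 10 above 0, so the absence of members above 0 depends on that library. The calls of *CDC25C* and *CCNB1* were lost without siCtrl DMSO replicate 1, siCtrl Srf replicate 2 or siY/T Srf replicate 1, at -0.33, -0.31 and -0.27 for *CDC25C* and -0.20, -0.21 and -0.20 for *CCNB1*, and that of *CDC20* was lost without siCtrl Srf replicate 2, at -0.23.

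Depletion of YAP and TAZ by itself lowered few of the members. In DMSO, 3 of 52 (5.77%) fell and 0 rose, where 3.61% of all genes tested were lowered and 11.0% were raised, a share near that of all genes. The median log2 fold change was -0.17. At an unadjusted P under 0.05 alone 31 were lower and 1 was higher in limma, and edgeR and DESeq2 each lowered 3 and raised 0. At an adjusted P under 0.05 and any fold change, 29 members were lower and 1 higher, against 22.8% and 37.3% of all genes tested. *ANLN* (Entrez 54443, chromosome 7 from 36429430 to 36493400) was at 576 and 608 CPM in siCtrl DMSO cells and at 279 and 379.9 CPM in siY/T DMSO cells, a change of -0.86 on the log2 scale (SE 0.098, adjusted p = 7.90e-06, limma). *NCAPG*, a HEAT-repeat subunit of condensin I, was at 168 and 175 CPM against 95.9 and 119.7 CPM, at -0.68 (SE 0.083, adjusted p = 1.41e-05, limma), and *KIF14*, a motor needed for cytokinesis, at 65.9 and 69.7 CPM against 35.8 and 56.8 CPM, at -0.58 (SE 0.15, adjusted p = 0.00395, limma). The siY/T libraries lay below the siCtrl libraries for each of them, and were far apart from each other. *CCNB1*, *PLK1*, *CENPA* and *FOXM1* were at -0.14, -0.04, -0.02 and 0.02.

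The 2 siY/T DMSO libraries differed from each other in a way that went with transcript length and with GC content. Replicate 2 minus replicate 1, on the log2 scale, had an SD over the members of 0.21 in this group and of 0.05 to 0.10 in the other 5. Its median was 0.31 for the 12 members with a canonical transcript of at least 5000 bases and 0.03 for the 40 shorter ones. The rank correlation with length was 0.55 over the members and 0.45 over 13027 genes of the same 2 libraries, as a description. With the GC content of the transcript it was -0.53 over the members and -0.39 over the 13027 genes. In the other 5 groups the correlation with length lay between -0.51 and 0.30 over the members, and that with GC content was up to 0.84, in siCtrl Srf cells, where the replicates differed little. *KIF14*, *CENPF*, *TOP2A*, *MKI67* and *KIF11* were all higher in replicate 2, with *TOP2A* at 551 and 821 CPM and *CENPF*, a large kinetochore protein, at 259 and 387 CPM. Without replicate 1 of this group 1 member was lowered by siY/T in DMSO, and without replicate 2 there were 7. *NCAPG* and *KIF14* lost their calls without replicate 1, at -0.52 and -0.25, and *KIF14* also without siCtrl DMSO replicate 2, at -0.54, and with a pseudocount of 1, at -0.58. The part of this difference in the siY/T results was not tested.

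**Figure D4:**
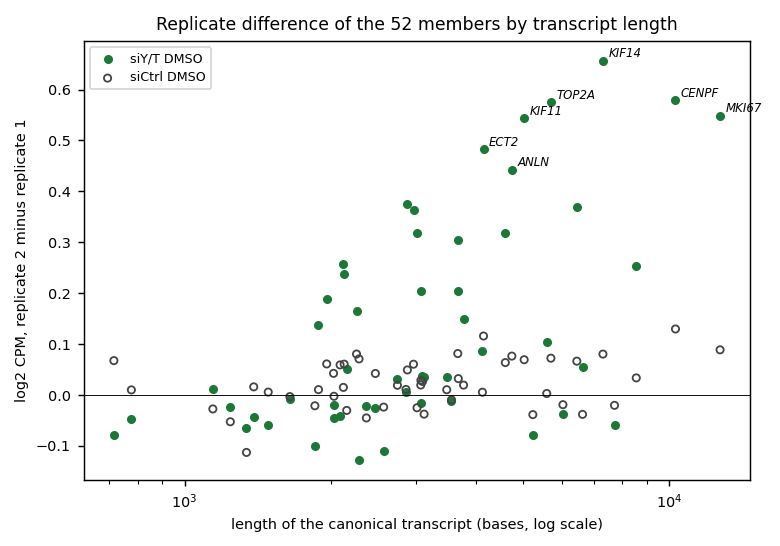
Log2 CPM of replicate 2 minus replicate 1 for the 52 members, against the length of the canonical transcript in bases on a log axis, in siY/T DMSO cells (green) and siCtrl DMSO cells (open circles). The siY/T points reach 0.66, for *KIF14*, and are above 0 for several long transcripts, while the siCtrl points stay between -0.11 and 0.13.

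In Srf, siY/T lowered 3 of 52 members (5.77%) and raised 0 relative to siCtrl, where 3.84% of all genes tested were lowered and 6.11% were raised, again a share near that of all genes. The count was 5 with TMM scaling, with quantile normalization, and by edgeR and DESeq2, which also raised 0, and at an unadjusted P under 0.05 alone 41 members were lower and 1 was higher in limma. By adjusted P under 0.05 and any fold change, 40 members were lower and 1 higher, against 18.8% and 30.2% of all genes tested. The median log2 fold change was -0.28. Many members were therefore a little lower and few passed the fold threshold. *ANLN* was at 416 and 394 CPM in siCtrl Srf cells and at 252 and 240.2 CPM after Srf in siY/T cells, a change of -0.72 on the log2 scale (SE 0.098, adjusted p = 5.95e-05, limma). *CENPE*, the kinesin that moves chromosomes to the spindle equator, was at 42.4 and 37.4 CPM against 27.5 and 24.0 CPM, at -0.62 (SE 0.093, adjusted p = 1.17e-04, limma), and *CENPI*, of the constitutive centromere network, at 39.0 and 39.1 CPM against 26.8 and 23.7 CPM, at -0.62 (SE 0.064, adjusted p = 4.81e-06, limma). The siY/T libraries were the lower ones in each case. The calls of *CENPE* and *CENPI* were lost without siY/T Srf replicate 2, at -0.52 and -0.53, and that of *CENPE* without siCtrl Srf replicate 1, at -0.53.

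Depletion of ATF4 in DMSO lowered mitosis genes broadly, though not all of them. It lowered 32 of the 52 members (61.5%) and raised 0, where 14.1% of all genes tested were lowered and 8.57% were raised, with a median log2 fold change of -0.67. At an unadjusted P under 0.05 alone 47 were lower and 1 was higher in limma, and edgeR and DESeq2 lowered 32 and 33 and raised 0. At an adjusted P under 0.05 and any fold change, 47 members were lower and 1 higher, against 34.4% and 33.4% of all genes tested. *CDCA8* (Entrez 55143, chromosome 1 from 38158153 to 38175391) was at 159 and 154 CPM in siCtrl DMSO cells and at 55.0 and 56.2 CPM in siATF4 DMSO cells, a change of -1.49 on the log2 scale (SE 0.041, adjusted p = 1.32e-11, limma). *KIF20A* (Entrez 10112, chromosome 5 from 137514408 to 137523412) was at 555 and 565 CPM against 252 and 254 CPM, at -1.14 (SE 0.039, adjusted p = 6.76e-11, limma), and *DLGAP5*, which stabilizes kinetochore fibres, at 129 and 133 CPM against 57.7 and 62.1 CPM, at -1.12 (SE 0.089, adjusted p = 1.57e-07, limma). The groups were well apart for all 3. *CDCA8* fell much further than its partners of the passenger complex, *AURKB*, *INCENP* and *BIRC5*, at -0.41, -0.56 and -0.37, none of which was called.

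In mitotic entry 6 of 8 fell, including *CCNB1*, at 372 and 354 CPM (-0.76 on the log2 scale), *CCNA2*, at 76.5 and 78.5 CPM (-0.70), and *CDC25B*, at 217 and 218 CPM (-0.98). Of the 4 genes of the centrosome and spindle kinases and their activator, 3 fell, the kinases *PLK1* to 124 and 118 CPM, *AURKA* to 151 and 138 CPM and *NEK2* to 37.6 and 38.7 CPM, with log2 fold changes of -0.76, -0.78 and -0.72. The activator *TPX2* was at -0.48 and was not called. The checkpoint genes *BUB1*, *BUB1B* and *TTK* were at -0.68, -0.79 and -0.91. The kinetochore had 7 of 9 and the spindle motors 5 of 7 members lowered, with *KIF11* at -0.95, *HMMR*, a microtubule binding protein, at -0.80 and *CENPF* at -0.89. *TOP2A* fell to 469 and 473 CPM, at -0.85 (SE 0.12, adjusted p = 3.75e-05, limma). In cytokinesis *ECT2* was at -1.01 and *KIF23* at -0.64. In anaphase *PTTG1* and *CDC20* were at -0.92 and -0.75.

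The 20 members not called lowered by siATF4 in DMSO were mostly lower too, short of the fold threshold. At an unadjusted P under 0.05 alone, 47 of the 52 members were lower in limma. The 20 included 8 with a log2 fold change within 0.3 of 0, namely *CDCA5*, *CDK1*, *FOXM1*, *MAD2L1*, *MKI67*, *SGO1*, *UBE2C* and *ZWINT*. This bound was set after the values were seen. *ZWINT* was at 182 and 179 CPM in siCtrl DMSO cells and at 184 and 185 CPM in siATF4 DMSO cells. *FOXM1* was at 337 and 335 CPM against 326 and 340.0 CPM, and *CDK1* at 161 and 162 CPM against 135 and 134 CPM. The libraries of the groups overlapped for *FOXM1* and not for *CDK1*, which was lower in both siATF4 libraries. All 8 were among the members lowered by Srf in siY/T cells, a comparison with no library in common, where *ZWINT* was at -0.93 and *CDK1* at -0.66. That comparison lowered 76.9% of all members. The comparisons of Srf in siCtrl cells and of siATF4 in DMSO share the siCtrl DMSO libraries, so their calls were not set against each other. Directly between siATF4 DMSO and siCtrl Srf cells, which share none, 26 members were lower and 26 higher in siATF4 DMSO cells, with a median log2 difference of 0.00. The calls of Srf in siY/T cells and of siATF4 in DMSO had 24 members in common, 60% of the former and 75% of the latter. These shares were near those over all 52 members, 61.5% lowered by siATF4 in DMSO and 76.9% lowered by Srf in siY/T cells.

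In Srf, siATF4 lowered 2 members (3.85%) and raised 4 (7.69%), where 18.7% of all genes tested were lowered and 10.3% were raised, and the median was 0.01. By adjusted P under 0.05 and any fold change, 11 members were lower and 21 higher, against 37.4% and 35.8% of all genes tested. The members lowered were *CDC25B*, at 517 and 519.9 CPM in siCtrl Srf cells and at 218 and 214 CPM in siATF4 Srf cells, a change of -1.26 on the log2 scale (SE 0.037, adjusted p = 2.51e-11, limma), and *CDCA8*, at 101 and 105 CPM against 49.6 and 49.6 CPM, at -1.05 (SE 0.041, adjusted p = 1.59e-10, limma). Both were therefore lowered by siATF4 in either arm. The members raised were *ZWINT*, at 92.0 and 96.5 CPM against 162 and 168 CPM (0.80 on the log2 scale, SE 0.045, adjusted p = 3.57e-09, limma), *MAD2L1*, the checkpoint protein that binds CDC20, at 18.6 and 17.3 CPM against 29.0 and 28.3 CPM (0.66 on the log2 scale, SE 0.075, adjusted p = 3.63e-06, limma), *SGO1*, which guards centromeric cohesion, at 20.0 and 19.1 CPM against 30.9 and 29.5 CPM (0.62 on the log2 scale, SE 0.069, adjusted p = 3.13e-06, limma), and *CDCA5*, at 0.59. All 4 were among the 8 that siATF4 had left within 0.3 of 0 in DMSO. *FOXM1*, at 217 and 224 CPM against 322 and 327 CPM, and *CDK1*, at 94.9 and 94.3 CPM against 133 and 131 CPM, were higher in both siATF4 libraries, at 0.56 and 0.48, without reaching the fold threshold. *CCNB1*, *PLK1* and *AURKA* were at -0.25, 0.01 and -0.07.

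**Figure D5:**
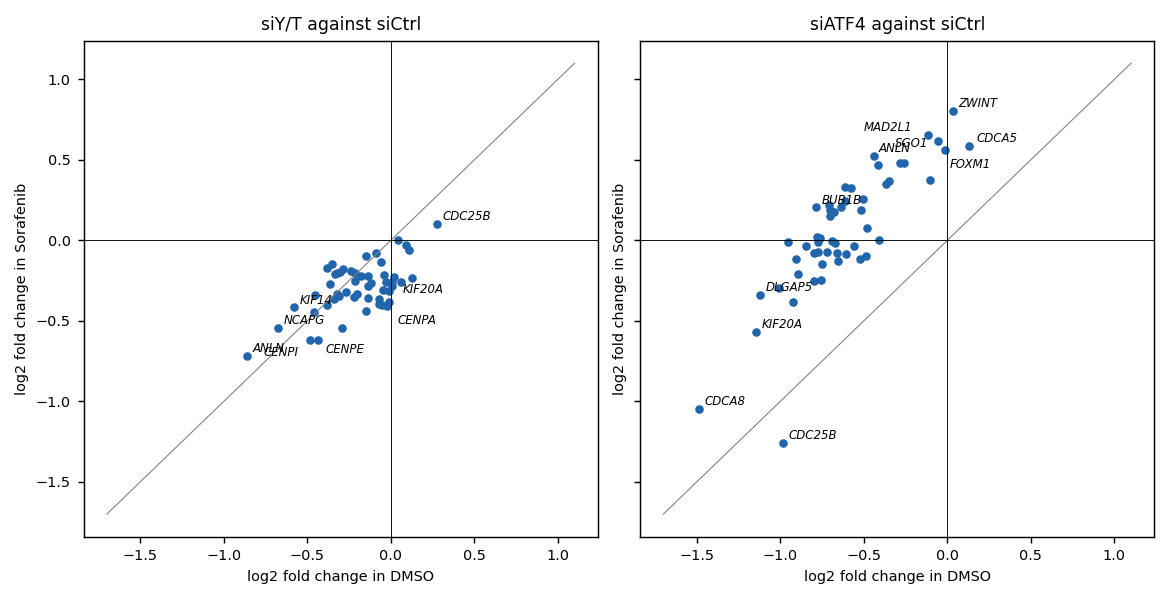
Log2 fold change of each member by siY/T (left) and by siATF4 (right), in DMSO on the x axis and in Srf on the y axis, with the line of equal effects in grey. With siATF4 all members but *CDC25B* lie above the line, and with siY/T they lie on both sides of it, with a median difference of -0.10.

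Other genes of the cell cycle were read from lists written beside the members. Of 36 DNA replication genes, Srf lowered 29 in siCtrl, 32 in siY/T and 1 in siATF4 cells, where 5.15%, 4.14% and 2.95% of all genes tested were lowered, with medians of -0.85, -0.83 and 0.02. In DMSO siATF4 lowered 0 and raised 0 of them in limma, in edgeR and in DESeq2, with 11 lower and 9 higher at an unadjusted P under 0.05 in limma and a median of 0.00, where 32 of the 52 mitosis genes were lowered. In Srf siATF4 raised 27 of them, where 10.3% of all genes tested were raised, with a median of 0.79, and *CDC45*, of the replicative helicase, was at 16.9 and 17.3 CPM in siCtrl Srf cells and at 55.3 and 55.5 CPM in siATF4 Srf cells. The replication genes therefore were mostly lowered by Srf in siCtrl and siY/T cells and, at the fold threshold, not by siATF4 in DMSO. *ZWINT* and the other members within 0.3 of 0 there had the same calls. Of these, *CDK1* was still lower in siATF4 DMSO cells, at 135 and 134 CPM against 161 and 162 CPM in siCtrl DMSO cells.

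The shares of all genes tested to set beside the next counts are 5.15% lowered by Srf in siCtrl cells, 4.14% in siY/T cells and 14.1% by siATF4 in DMSO, in that order. Of 29 further kinetochore and centromere genes, Srf lowered 15 in siCtrl and 17 in siY/T cells, and siATF4 in DMSO lowered 2 (6.9%, below the share of all genes) and raised 1. Of 21 further motors and spindle genes, the numbers lowered were 6, 11 and 10, the last including *GTSE1* at -1.20. Of 11 other genes of mitotic entry they were 10, 9 and 3, and *CDC25A*, the phosphatase that acts from G1 onward, was at 56.0 and 55.3 CPM in siCtrl DMSO cells and at 17.2 and 19.8 CPM with Srf. The subunits and partners of the anaphase promoting complex, 17 genes, were lowered in 2, 2 and 0 cases, and the 16 other condensin and cohesin genes in 4, 2 and 3, the last (18.8%) near the share of all genes.

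Of 24 regulators of the mitotic programme, Srf lowered 9 and raised 1 in siCtrl cells, and siATF4 in DMSO lowered 3 (12.5%) and raised 1 (4.17%), where 14.1% and 8.57% of all genes tested were called. The corresponding shares for Srf in siCtrl cells were 37.5% and 4.17% of the list against 5.15% and 12.3% of all genes tested. The gene raised by siATF4 was *CDKN1A*, which encodes p21, an inhibitor of cyclin-dependent kinases that acts upstream of DREAM. It was at 15.6 and 15.2 CPM in siCtrl DMSO cells, at 107 and 97.6 CPM in siATF4 DMSO cells, at 6.81 and 7.59 CPM in siCtrl Srf cells and at 37.2 and 39.6 CPM in siATF4 Srf cells. On the log2 scale siATF4 in DMSO moved it by 2.69 (SE 0.10, adjusted p = 1.75e-10, limma) and Srf in siCtrl cells by -1.05 (SE 0.10, adjusted p = 1.70e-06, limma). Srf also moved it by -1.58 in siY/T cells and by -1.40 in siATF4 cells, where Srf lowered 0 of the mitosis genes. *CDKN1A* was therefore high where siATF4 had lowered the mitosis genes in DMSO. Its fall with Srf was not confined to the backgrounds in which Srf lowered them. The part of *CDKN1A* in either change was not tested. *TFDP2*, a partner of E2F proteins, was raised by siY/T, with siCtrl DMSO libraries at 58.8 and 62.1 CPM and siY/T DMSO libraries at 173 and 181 CPM.

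The members with a CHR in a promoter, 34 of 45, and the 11 without one were set side by side. Their median log2 fold changes were -0.64 and -0.55 with Srf in siCtrl cells, -0.74 and -0.84 with Srf in siY/T cells, and -0.65 and -0.72 with siATF4 in DMSO. The medians lay further apart, at -0.25 and -0.07, with siY/T in DMSO, at 0.18 and -0.01 with siATF4 in Srf, and at -0.02 and -0.22 for the siY/T difference of effects. With siY/T in Srf the order was the other way from that in DMSO, at -0.26 and -0.36. With Srf in siATF4 cells the medians were 0.09 and 0.11, and for the siATF4 difference of effects 0.75 and 0.64. The ranges of the 2 sets overlapped in all of these. *NCAPH* and *CCNB1*, without a match, fell with Srf in siCtrl and siY/T cells, as did *CENPA* and *PLK1*, which have a CHR. *CDC25B* was not called with Srf in any background, and most of its 4 promoters have no CHR. *PLK1* and *CDC25B* were chosen after their values were seen. Other forms of the CHR were not searched, and the start sites used in these cells are not known. The part of the CHR in these changes was not tested.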

How the data were processed

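RNA-seq was performed in HLE cells in 6 groups of 2 libraries. Per the study's methods, single-end reads were mapped to hg19 with STAR, unique hits were kept, and reads over exons of RefSeq mRNAs were counted with QuasR. The strand setting was not given in the sources used here. The deposited values are CPM, which the authors divided by library totals alone. All values (100%) were whole multiples of 1 read within 0.001 read, so read counts were recovered from the deposited CPM. Of the 26258 identifiers, 147 had no symbol in the table used. All 12 columns were mapped to samples, and 0 columns were left out. Groups and replicate numbers were taken from the labels.

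limma (3.58.1, with trend) was run on log2(CPM + 0.5) over the 13515 genes that reached 1 CPM in 2 or more libraries, with 1 coefficient per group over the 12 libraries, and fold changes are on that scale. Genes were called at an unadjusted P under 0.05 with a log2 fold change of 0.58 or more in size, the study's thresholds, and the 2 differences of effects at P under 0.05 after Benjamini-Hochberg adjustment. All tests were two-sided. Alternatives were pseudocounts of 0.1 and 1, no filter, a filter of 5 CPM, TMM, quantile normalization, a replicate block, only the groups compared, edgeR (4.0.16, quasi-likelihood) and DESeq2 (1.42.0) on the recovered reads, adjusted P with and without the fold threshold, and leaving out each library. For Srf in siCtrl cells edgeR lowered 890 and raised 1807 of the 13515 genes. The scripts were tested on simulated data. Python (3.11.15) and R (4.3.3) were used.

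The members and gene lists were chosen with earlier results of these data known. Named genes were the landmark members, the 3 called members with the largest rise and fall in each comparison and the 3 with the largest differences of effects. Other members were named by role, and outside the members the siRNA targets, the cell type markers and genes of each other list by size of change.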

Additional observations from a re-analysis of the deposited data

Results flagged for a closer look

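The effect of Srf differed between cell backgrounds by the interaction test of limma at an adjusted P under 0.05, without a fold threshold. Between siY/T and siCtrl cells it differed for 16 members, all below 0. Without siY/T DMSO replicate 2 there were 17 below 0 and 10 above 0. Among the named members, the differences on the log2 scale were -0.38 for *CENPA*, -0.37 for *KIF20A*, -0.36 for *CDC25C*, -0.32 for *AURKB*, -0.27 for *UBE2C*, -0.25 for *CDC20*, -0.24 for *FOXM1* and -0.22 for *CCNB1*.

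Between siATF4 and siCtrl cells the effect of Srf differed for all 52 members, 51 of them above 0. The largest differences were 0.99 for *BUB1B*, 0.97 for *ANLN*, 0.95 for *NDC80* and 0.94 for *KIF11*. Other kinetochore, passenger and checkpoint genes were at 0.86 (*BUB1*), 0.76 (*CENPA*), 0.72 (*BIRC5*) and 0.42 (*AURKB*). The cyclin and kinase genes were at 0.85 (*CCNA2*), 0.77 (*PLK1*), 0.74 (*CDK1*), 0.70 (*AURKA*) and 0.51 (*CCNB1*). *TOP2A* was at 0.81, *MKI67* at 0.76, *CDC20* at 0.60, *FOXM1* at 0.57 and *UBE2C* at 0.48. Each of these rests on 2 libraries per group, and the cause was not tested.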

How the results depend on the processing

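Of 380 recomputed counts of members, 360 stayed within 1.5 times the reported count and 20 did not, and of 1868 recomputed changes of named members 1850 kept their direction and call, 18 lost the call and 0 reversed. Of 198 recomputed medians of the members, 169 were kept, 29 moved and 0 reversed. With 1 library left out, the median of the siY/T difference of effects ranged from -0.18 to -0.06. With an adjusted P and no fold threshold, Srf lowered 51 and raised 1 member in siCtrl cells. It lowered nearly all members and raised 1 in siY/T cells, and lowered 9 and raised 16 in siATF4 cells. Under that rule siY/T lowered 29 and raised 1 in DMSO and lowered 40 and raised 1 in Srf. With siATF4 most members were lowered and 1 was raised in DMSO, and 11 were lowered and 21 raised in Srf. In Srf, siY/T lowered 5 members with TMM scaling, quantile normalization, edgeR and DESeq2. With 1 library left out, the number lowered by Srf was 31 to 35 in siCtrl cells, 34 to 50 in siY/T cells and 0 in siATF4 cells. The number lowered by siY/T was 1 to 7 in DMSO (1 without siY/T DMSO replicate 1, 7 without replicate 2) and 2 to 4 in Srf, and by siATF4 31 to 33 in DMSO and 2 to 3 in Srf, where 3 to 5 were raised. The difference of effects was called for 11 to 27 members with siY/T (11 without siCtrl Srf replicate 2, 25 without siY/T DMSO replicate 1, and 27 without replicate 2, of which 17 were below 0 and 10 above 0) and for 51 to 52 with siATF4. The lone library left in a group is assumed to vary like the other groups. The cause was not tested.

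Same-numbered libraries of different groups had deviations correlated between -0.28 and 0.19, so the replicate numbers were not taken to pair the libraries. With the replicate block the number lowered by Srf was 31, 40 and 0 in siCtrl, siY/T and siATF4 cells, that lowered by siY/T was 3 in each arm, that lowered by siATF4 was 32 in DMSO and 2 in Srf with 4 raised, and the differences of effects were 16 and 52. With 2 libraries per group, differences near the fold threshold are the least certain. The depth limits none of the members, which were at 1 CPM or more in every library.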
